A study of Mus musculus with 8 samples.

Results

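Genes that move glucose and fructose through the liver cell were followed in single nuclei from 8 mouse livers. The set was fixed by symbol and consisted of Pck1, Fbp1, G6pc, Ppargc1a, Pklr, Khk, Slc2a2 and Irs2, which are 8 of the 32285 genes counted in every library. All 8 were found once by symbol and all 8 passed the filter on low counts in every fit. Unique molecular identifiers (UMIs, the counted RNA molecules) were summed per mouse over barcodes with at least 300 genes, and again over nuclei gated by marker genes as hepatocytes and as pericentral or periportal hepatocytes. Levels are given as CPM, the UMIs of the gene per 1000000 UMIs of the same sum. Because genes differ in length and in how they are primed, levels were compared between mice and gates and not between genes.

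The livers came from male DIAMOND mice, a cross of 129A1/SvIm and C57BL/6J, with 1 library per mouse. The 3 WD tumour mice ate a high-fat Western diet with fructose and glucose in the drinking water for 48 weeks and had hepatocellular carcinoma. The 5 reversal mice (RD) ate it for 36 weeks and were then returned to chow: 2 of them had hepatocellular carcinoma (RD tumour) and 3 had none that was detected (RD no tumour). All mice had therefore eaten the Western diet, which began at 2 months of age, and no mouse was fed chow throughout. The sources conflict on age: the series text counts 48 weeks as time on diet, whereas the extraction protocol gives 48 weeks as the age of all mice at collection, so the age is uncertain. Whether the frozen piece of liver held tumour tissue, and whether the mice had fed before collection, are not given in the sources used here. Cancer state within the reversal groups was an outcome and not an assigned treatment.

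Gluconeogenesis builds glucose from lactate, glycerol and amino acids and releases it into blood. In the liver it is raised by glucagon and glucocorticoids during fasting and held down by insulin after a meal, and it is strongest around the portal vein, while glycolysis is classically placed toward the central vein. Dietary fructose enters through Khk, bypasses the regulated steps of glycolysis and feeds lipid synthesis. A sugar-rich diet therefore loads the fructose and glycolytic arm, and Pklr is a textbook target of the sugar sensor ChREBP.

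The libraries held 6049 to 20000 barcodes and 17948627 to 34363108 UMIs each, and any pair of libraries shared 8 to 65 barcodes, at most 0.676% of the smaller library. A set of 3 libraries, 1 in each group, stood apart in their whole-library profiles: WD tumour 2, RD tumour 1 and RD no tumour 1. Pearson correlations of log2 levels over 16300 genes were 0.950 to 0.988 among the other 5 libraries and 0.746 to 0.856 between RD tumour 1 and any other. The summed level of 4 neutrophil markers was 120 to 2016 CPM in these 3 libraries and 13.1 to 71.9 in the other 5. The hepatocyte gate kept 887 to 4914 nuclei in 7 mice but 493 in RD tumour 1, or 2.47% of its barcodes. In that mouse only 4 nuclei entered each zone gate, so zone values below are given for the other 7 mice as well as for all 8.

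The zone gates were built from 8 pericentral and 8 periportal marker genes, none of them a member of the set. They took the zoned nuclei at or beyond the upper and lower 25% cuts of each library by the share of pericentral markers. Ties at a cut enlarged some gates. In WD tumour 2 the pericentral gate held 108 and the periportal gate 85 of 240 zoned nuclei. Markers held out of the gate tested the labels. In the 7 mice the 7 held-out pericentral markers, among them Glul and Axin2, summed to 3.93 to 20.8 times more in the pericentral than in the periportal gate. The 7 held-out periportal markers, among them Ass1 and Cps1, were 1.25 to 2.27 times higher in the periportal gate.

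Start-site windows are shown here for the 4 members called by zone in every alternative, and for the second start of Pklr, which holds a motif match, from 250 bases before to 50 bases after a RefSeq transcription start on GRCm38.p6. All 8 members matched by symbol. Capitals mark ACGTCA (the core of a cAMP response element), TGTTT (a forkhead-like core) or CACGNG followed after 5 bases by CNCGTG (a pair of E-box-like sites, as in a carbohydrate response element), searched on both strands. The motifs were chosen after the windows had been read.
Pck1, chr2:173152823-173153122, plus strand: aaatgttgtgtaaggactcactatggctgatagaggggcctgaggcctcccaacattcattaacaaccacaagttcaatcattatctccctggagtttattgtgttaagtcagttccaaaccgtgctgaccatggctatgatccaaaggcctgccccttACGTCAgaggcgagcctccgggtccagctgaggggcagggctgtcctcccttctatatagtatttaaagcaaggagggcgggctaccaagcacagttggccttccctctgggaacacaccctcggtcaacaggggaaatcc
G6pc, chr11:101367466-101367765, plus strand: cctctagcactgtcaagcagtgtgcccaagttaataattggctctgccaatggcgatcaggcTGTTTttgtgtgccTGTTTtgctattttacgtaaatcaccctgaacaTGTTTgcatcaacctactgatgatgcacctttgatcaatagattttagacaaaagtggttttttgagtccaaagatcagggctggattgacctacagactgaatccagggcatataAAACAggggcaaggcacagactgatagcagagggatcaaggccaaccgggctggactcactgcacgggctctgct
Fbp1, chr13:62888233-62888532, minus strand: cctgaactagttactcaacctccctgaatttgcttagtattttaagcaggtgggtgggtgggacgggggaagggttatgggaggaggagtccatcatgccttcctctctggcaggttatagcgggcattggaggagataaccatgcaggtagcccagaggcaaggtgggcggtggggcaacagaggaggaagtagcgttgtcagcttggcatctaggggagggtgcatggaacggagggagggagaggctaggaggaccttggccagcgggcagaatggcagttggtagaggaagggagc
Ppargc1a, chr5:51567676-51567975, minus strand: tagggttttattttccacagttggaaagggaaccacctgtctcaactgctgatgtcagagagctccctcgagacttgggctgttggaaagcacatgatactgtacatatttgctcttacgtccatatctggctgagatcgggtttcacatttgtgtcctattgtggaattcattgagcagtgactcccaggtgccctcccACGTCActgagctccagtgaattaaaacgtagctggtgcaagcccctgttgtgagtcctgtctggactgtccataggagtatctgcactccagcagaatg
Pklr, second start, chr3:89136373-89136672, plus strand: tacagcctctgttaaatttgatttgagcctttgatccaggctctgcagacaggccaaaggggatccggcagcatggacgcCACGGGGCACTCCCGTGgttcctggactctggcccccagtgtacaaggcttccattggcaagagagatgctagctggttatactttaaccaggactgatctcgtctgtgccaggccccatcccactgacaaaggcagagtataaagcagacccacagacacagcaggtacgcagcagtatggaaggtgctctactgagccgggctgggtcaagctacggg

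ACGTCA or its reverse TGACGT occurred in the windows of Pck1, from base -91, and Ppargc1a, from base -50, and in 7.51% of 32851 windows of this length genome-wide. The G6pc window held TGTTT at bases -188, -174 and -141 and the reverse AAACA at -25, but either form occurs in 50.5% of all windows. The paired motif was found upstream of the second Pklr start, from base -170, and in 15 of the 32851 windows (0.0457%). CACGTG, found in 7.15% of all windows, was in those of Khk and Irs2. No match to any of the 4 motifs was found in the windows of Fbp1 and Slc2a2 or at the first Pklr start. These matches describe letters in a window and were not tied to any difference between mice.

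Of the 8 members, 6 had lower RNA in pericentral than in periportal hepatocyte nuclei of the same liver: G6pc, Pklr, Fbp1, Ppargc1a, Pck1 and Slc2a2. Log2 fold changes ran from -0.83 for G6pc to -0.36 for Slc2a2. In the same fit 12.7% of 11555 genes passed an adjusted p of 0.05 (edgeR quasi-likelihood test with mouse as a block, Benjamini-Hochberg adjustment), 6.08% as lower and 6.60% as higher in the pericentral gate. Pck1, G6pc, Fbp1 and Ppargc1a, 3 enzymes of gluconeogenesis and a coactivator of their transcription, passed in the main fit and in all 14 alternatives run for them. Khk and Irs2 did not pass.

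**Figure D1:**
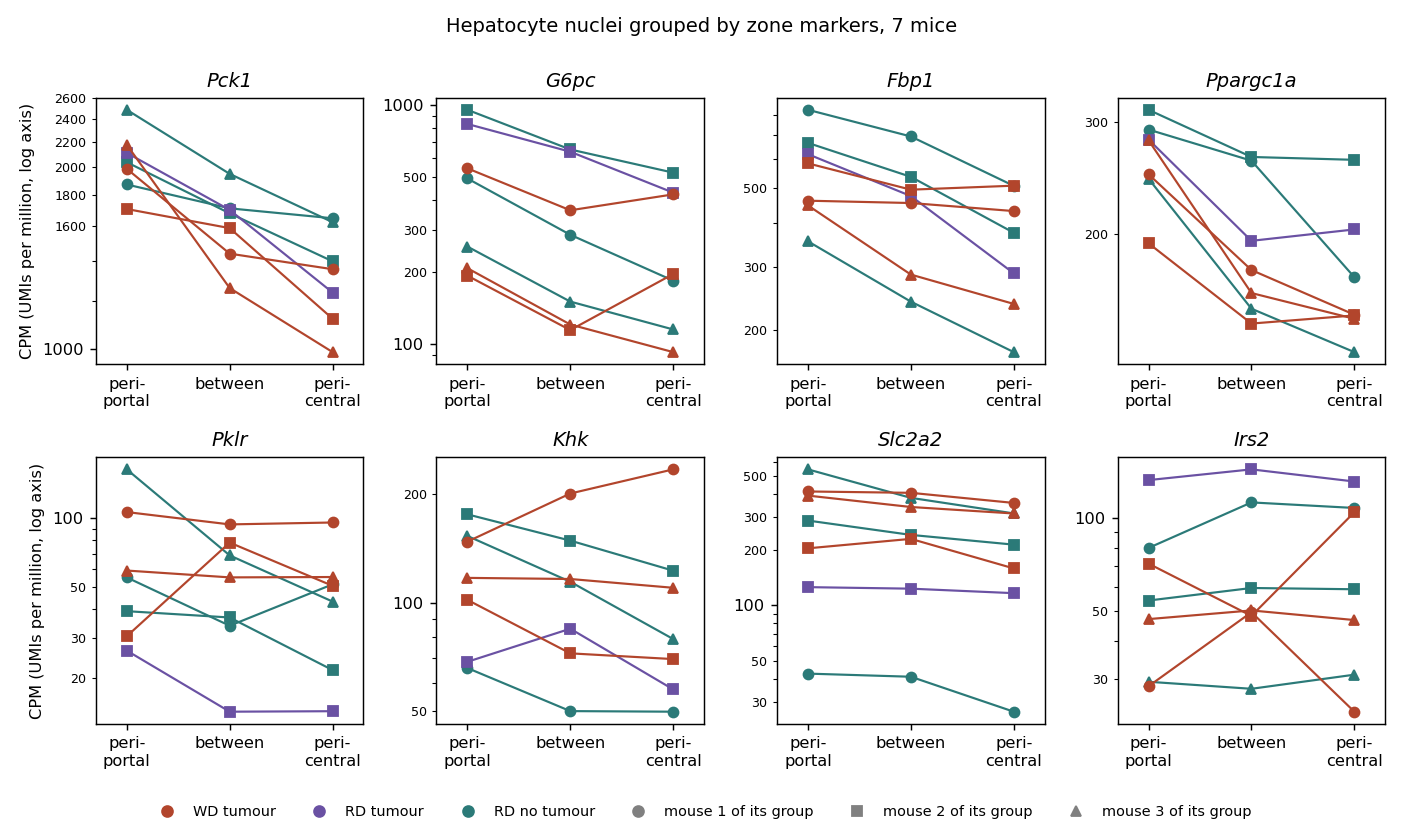
CPM (log axis, a separate scale for each gene) in periportal-gated, intermediate and pericentral-gated hepatocyte nuclei, with 1 line per mouse for the 7 mice with filled gates. Pck1 fell at each step in all 7 mice, whereas the lines for Irs2 crossed.

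Pck1 (chromosome 2, 173153048 to 173159273, GRCm38) encodes the cytosolic phosphoenolpyruvate carboxykinase, which commits carbon to gluconeogenesis. In the periportal gate it stood at 1987, 1704 and 2177 CPM in the WD tumour mice, 2111 in RD tumour 2, and 1871, 2037 and 2488 in the RD no tumour mice. The pericentral values of the same mice were 1354, 1121, 987, 1239, 1645, 1396 and 1621. Every one of the 7 mice was lower pericentrally, and in all 7 the nuclei between the gates lay between these levels. The smallest difference was in RD no tumour 1 (log2 -0.19) and the largest in WD tumour 3 (-1.14). The fit gave -0.51 ± 0.12 (SE; adjusted p = 0.00469).

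G6pc (chromosome 11, 101367561 to 101377903) encodes glucose-6-phosphatase, the last step before free glucose leaves the cell. Its periportal levels were 543, 193 and 208 CPM in the WD tumour mice, 833 in RD tumour 2, and 493, 954 and 256 in the RD no tumour mice. Pericentrally they were 423, 196, 92.6, 429.9, 184, 521 and 115. Of the 7 mice, 6 were lower pericentrally and WD tumour 2 was level (log2 difference 0.02). The fit gave -0.83 ± 0.14 (adjusted p = 6.16e-05), the largest fall among the 8.

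Fbp1 (chromosome 13, 62864753 to 62888282, minus strand) encodes fructose-1,6-bisphosphatase, the opposing enzyme to phosphofructokinase. It stood periportally at 460.2, 585 and 446 CPM in the WD tumour mice, 621 in RD tumour 2, and 825, 667 and 354 in the RD no tumour mice. The pericentral levels were 431, 507, 237, 289, 506, 375 and 174. All 7 mice were lower pericentrally, WD tumour 1 by the least (log2 -0.10) and RD tumour 2 by the most (-1.10). The fit gave -0.64 ± 0.13 (adjusted p = 0.00114).

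Ppargc1a (chromosome 5, 51454250 to 51567726, minus strand) encodes PGC-1alpha, a coactivator that raises gluconeogenic and mitochondrial genes. Periportal levels were 248, 193 and 281 CPM in the WD tumour mice, 281 in RD tumour 2, and 292, 313 and 244 in the RD no tumour mice. Pericentral levels were 149, 149, 147, 203, 171, 261 and 130.4. All 7 mice were lower pericentrally, and the 3 WD tumour mice had nearly the same pericentral level. The fit gave -0.60 ± 0.10 (adjusted p = 0.000146).

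Slc2a2 (chromosome 3, 28697903 to 28731359) encodes GLUT2, the carrier that lets glucose and fructose in and glucose out of hepatocytes. Its periportal levels were 413, 203 and 393 CPM in the WD tumour mice, 125 in RD tumour 2, and 42.7, 288 and 544 in the RD no tumour mice, against 358, 158, 314, 116, 26.6, 213 and 314 pericentrally. Each of the 7 mice was lower pericentrally, although the periportal level itself ran from 42.7 to 544 between mice. The fit gave -0.36 ± 0.11 (adjusted p = 0.0352), and the call was lost in 8 of 14 alternatives, with adjusted p from 0.0106 to 0.313. Leaving out WD tumour 3 or any 1 of the RD no tumour mice was enough to lose it, with adjusted p = 0.0635, 0.0684, 0.0990 and 0.222.

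Pklr (chromosome 3, 89136142 to 89146784) encodes the liver pyruvate kinase, the last step of glycolysis. It was called lower pericentrally with a fit of -0.69 ± 0.20 (adjusted p = 0.0234), but the call depended on single mice, most of all on RD no tumour 3. In that mouse it fell from 164 CPM periportally to 43.3 pericentrally. The other mice had 106 and 95.8 (WD tumour 1), 30.5 and 50.7 (WD tumour 2), 59.1 and 55.4 (WD tumour 3), 26.4 and 14.4 (RD tumour 2), 55.1 and 51.5 (RD no tumour 1), and 39.3 and 21.7 (RD no tumour 2). Without RD no tumour 3 the fold change was -0.24 (adjusted p = 0.437). The call was also lost without RD tumour 2 (-0.66, adjusted p = 0.0564), without RD no tumour 2 (-0.64, adjusted p = 0.0822) and with DESeq2 on all mice (-0.49, adjusted p = 0.370).

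Khk (chromosome 5, 30921431 to 30931248), the ketohexokinase that phosphorylates fructose, was lower pericentrally in 6 of 7 mice but higher in WD tumour 1, at 234 against 148 CPM. The fit gave -0.25 ± 0.15 (adjusted p = 0.346). Without WD tumour 1 it passed, at -0.47 (adjusted p = 0.00916), and it also passed in nuclei with at most 5% mitochondrial UMIs, at -0.49 (adjusted p = 0.0101). Irs2 (chromosome 8, 10984681 to 11008458, minus strand), the adaptor that carries the insulin receptor signal in hepatocytes, was lower pericentrally in 3 of 7 mice, with a fit of 0.13 ± 0.11 (adjusted p = 0.557).

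A 2-sided exact sign-flip permutation test of the within-mouse log2 differences, run for each of the 8 members and not adjusted over them, cannot go below p = 0.0156 with 7 mice. Pck1, Fbp1, Slc2a2 and Ppargc1a reached that smallest exact p, each being lower in 7 of 7 mice; 5.95% of the 11555 genes were lower pericentrally in all 7. G6pc gave an exact permutation p of 0.0313, Pklr 0.141, Khk 0.188 and Irs2 0.313. With RD tumour 1 added, whose gates held 10148 and 8671 UMIs, the exact permutation p was 0.0234 for Pck1, 0.992 for G6pc, 0.25 for Fbp1, 0.0156 for Slc2a2 and 0.00781 for Ppargc1a. G6pc had 2 UMIs in the pericentral and 0 in the periportal gate of that mouse, and a count of 0 there allows up to 346 CPM. Slc2a2 had 0 UMIs in both gates of that mouse, as did Pklr and Khk, so for these genes adding it could not change the test.

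**Figure D2:**
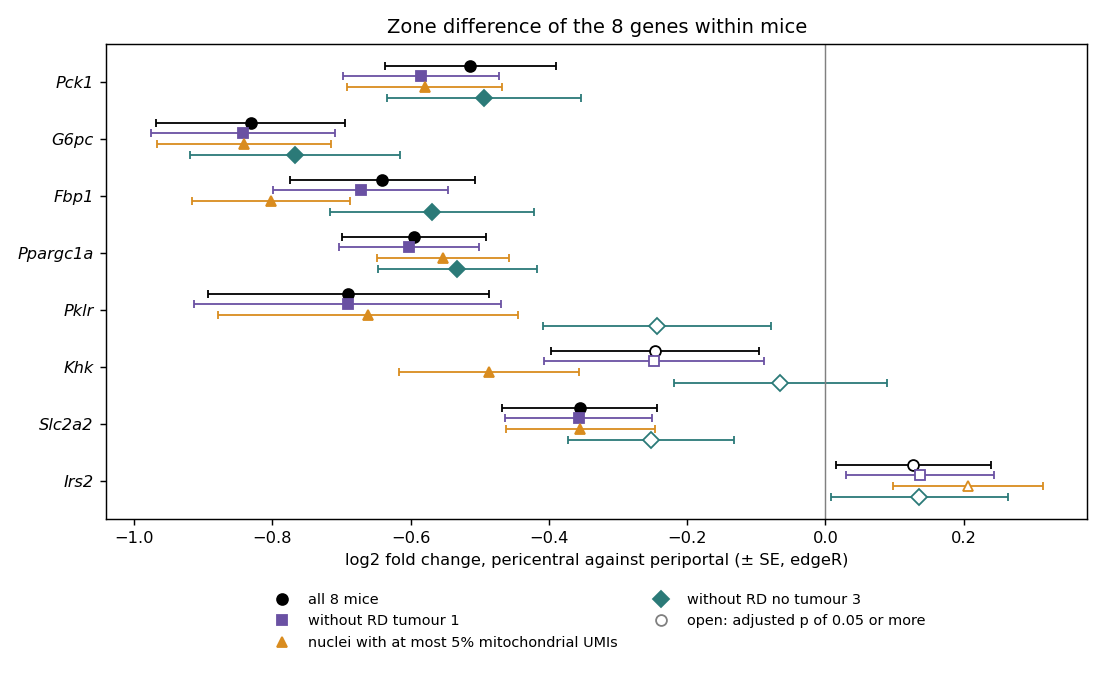
Log2 fold change of each member, pericentral against periportal (edgeR, bars are SE), in all 8 mice and in 3 alternatives, with open symbols where the adjusted p was 0.05 or more. The gluconeogenic genes and Ppargc1a kept filled symbols in all 4 settings shown, while Pklr and Slc2a2 were open without RD no tumour 3.

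Depth and mitochondrial RNA differed between the zone gates in the WD tumour mice. In WD tumour 1 and WD tumour 3 the pericentral nuclei were shallower than the periportal ones (medians 914 against 3074 UMIs, and 1182 against 3933). They also carried more mitochondrial RNA (medians 12.0% against 3.1%, and 9.60% against 2.81%). WD tumour 2 had the opposite order for both (2156.5 against 1163 UMIs, and 2.50% against 4.32%). The other 4 mice with filled gates had mitochondrial medians of 0.62% to 1.65% in both gates. Their median depths were 3182 against 2749.5 UMIs in RD tumour 2, and 3571 against 3496, 5233 against 5169.5 and 3198 against 3470 in the RD no tumour mice. No alternative matched depth between the gates. In nuclei with at most 5% mitochondrial UMIs the fold changes were -0.58 for Pck1, -0.84 for G6pc, -0.80 for Fbp1 and -0.55 for Ppargc1a.

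The zone difference of Pklr also differed between the 3 groups (adjusted p = 0.0239, edgeR test of zone by group), a result shared by 0.822% of the genes tested. Relative to RD no tumour mice, the pericentral-minus-periportal difference of Pklr was 1.33 higher on the log2 scale in WD tumour mice and 0.36 higher in RD tumour mice. The RD tumour value rests on RD tumour 2 alone, because RD tumour 1 had 0 UMIs of Pklr in both gates. The difference in RD tumour 2 was -0.84, within the RD no tumour values of -0.10, -0.83 and -1.89. The zone gates also differed between groups. Pericentral gate markers summed to 1088 to 1870 CPM in the periportal gate of WD tumour mice and 345 to 821 in RD no tumour mice. Periportal gate markers summed to 0 to 21.6 CPM in the pericentral gate of WD tumour mice and 0 to 157 in RD no tumour mice. The part of these gate differences in the Pklr result was not tested. The call was again lost without RD no tumour 3 (adjusted p = 1.00) and with DESeq2 (adjusted p = 1.00). Leaving out WD tumour 1, WD tumour 3, RD tumour 1 or RD tumour 2 also lost it (adjusted p = 0.226, 0.218, 0.112 and 0.230), as did gating on 0 UMIs of other-cell markers (adjusted p = 0.0756) or on at most 0.2% of UMIs in them (adjusted p = 0.118), so that 8 of 14 alternatives lost the call. No other member passed on all mice, Khk coming next (adjusted p = 0.168), and Khk passed without WD tumour 2 (adjusted p = 0.00978).

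Between the groups, Irs2 and Pklr were the members that separated the RD tumour mice. In whole libraries Irs2 stood at 32.6, 58.9 and 36.6 CPM in the WD tumour mice, 209 and 122 in the RD tumour pair, and 68.7, 44.5 and 27.0 in the RD no tumour mice. Both RD tumour mice were above all 6 others, as were 5.87% of the 19078 genes tested. Group means were 42.7 ± 14.2 (SD, n = 3), 165 ± 61.5 (SD, n = 2) and 46.7 ± 20.96 (SD, n = 3). In bulk sums such as these, fewer cells of a type and less RNA per cell cannot be told apart.

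Pklr showed the opposite order, at 81.5, 37.9 and 49.0 CPM in the WD tumour mice, 5.03 and 16.1 in the RD tumour pair, and 22.4, 26.0 and 74.2 in the RD no tumour mice. Both RD tumour mice were below all 6 others, as were 3.05% of genes. Group means were 56.1 ± 22.6 (SD, n = 3), 10.5 ± 7.79 (SD, n = 2) and 40.9 ± 28.9 (SD, n = 3). The WD tumour and RD no tumour ranges overlapped for Pklr and for every other member, where 6.85% of genes were wholly higher and 3.80% wholly lower in WD tumour.

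**Figure D3:**
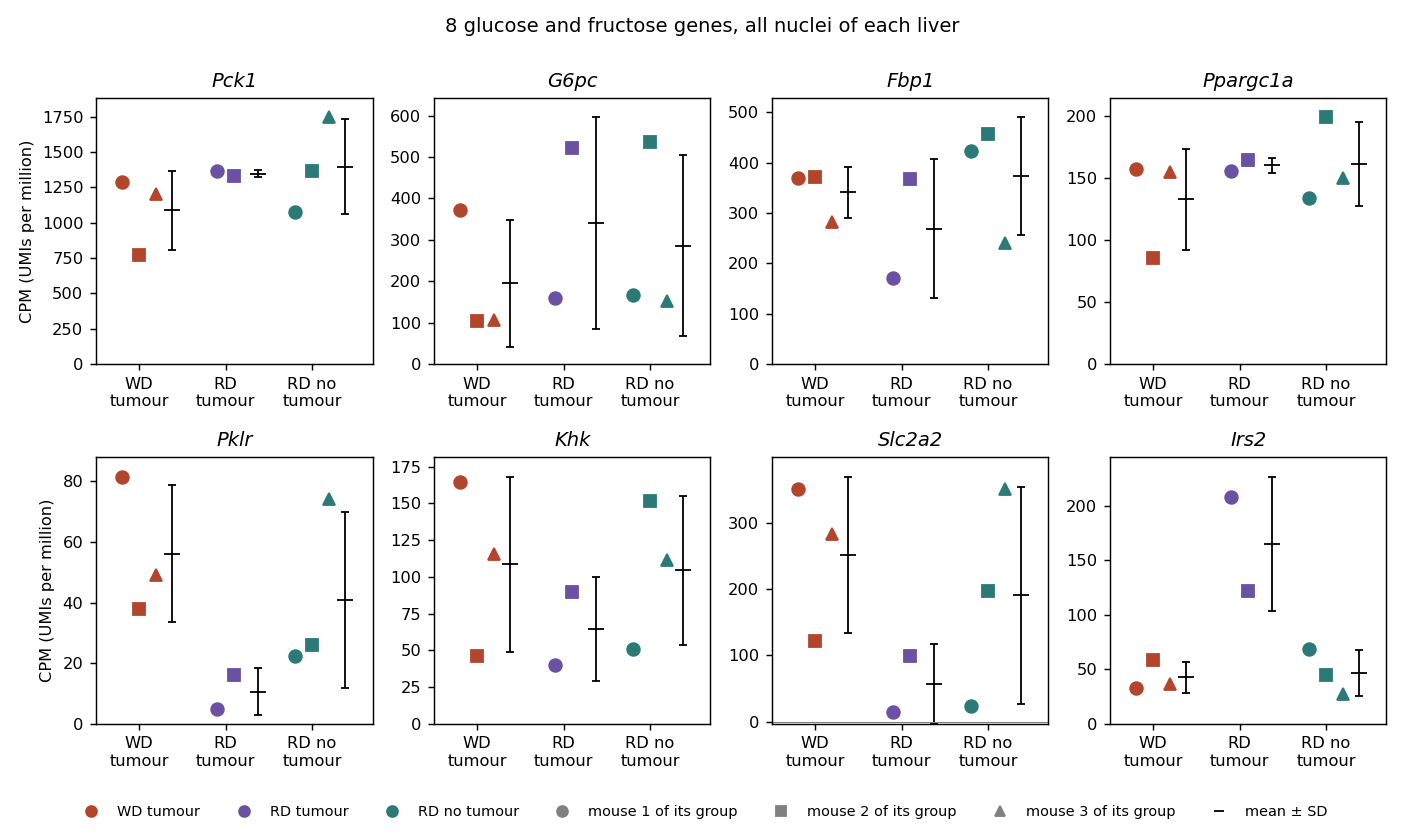
CPM in all nuclei of each liver, 1 point per mouse, with the group mean and SD beside the points (n = 3, 2 and 3) and a separate scale for each gene. Both RD tumour mice lie highest for Irs2 and lowest for Pklr, and the groups overlap for most other members.

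None of these group differences passed the test. On simulated data the whole-library fit of WD tumour against RD no tumour recovered 2% of 2-fold changes, so a lack of calls does not exclude them. In all 4 whole-library contrasts 0 of 19078 genes had an adjusted p under 0.05 (0%, edgeR), and at an unadjusted p under 0.05 there were 2.75% when WD tumour was set against RD no tumour and 6.69% when the RD tumour pair was. The share was 7.55% between both tumour groups, and 4.28% when WD tumour was compared with the mean of the RD groups. DESeq2 called 36, 64, 109 and 64 genes in these contrasts, in that order.

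The fitted difference of Irs2 between the RD tumour pair and the RD no tumour mice was 1.80 ± 0.43 on the log2 scale (SE; unadjusted p = 0.00318, adjusted p = 0.612, edgeR). WD tumour against RD tumour, which shares the RD tumour mice, gave -1.96 ± 0.43 (unadjusted p = 0.00197, adjusted p = 0.590, edgeR); the DESeq2 adjusted p was 0.0161. For Pklr the values were -2.09 ± 0.76 (adjusted p = 0.612) and 2.48 ± 0.77 (adjusted p = 0.590). Against the mean of the RD groups, WD tumour mice had Pklr at 1.43 ± 0.55 and Irs2 at -1.06 ± 0.36 (both adjusted p = 0.947, edgeR).

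The RD tumour group is 2 mice that differ from each other in composition. Without RD tumour 2, so that RD tumour 1 stood alone and was assumed to vary like the other groups, 4566 genes were called against RD no tumour, Irs2 among them (2.15, adjusted p = 0.0222), and Irs2 was also called against the WD tumour mice (-2.32, adjusted p = 0.0192). Without RD tumour 1, 11 genes were called and Irs2 was not. Summed neutrophil markers were 2016 CPM in RD tumour 1 and 52.9 in RD tumour 2, against 13.1 to 523 in the other groups, and the part of cell composition in these differences was not tested.

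In hepatocyte-gated nuclei the same pair of genes set the RD tumour mice apart. Irs2 stood at 35.02, 56.3 and 45.1 CPM in the WD tumour mice, 274 and 129 in the RD tumour pair, and 95.9, 57.0 and 28.3 in the RD no tumour mice. Pklr stood at 94.0, 38.05 and 53.7 in the WD tumour mice, at 0 and 18.2 in the RD tumour pair, and at 43.3, 33.3 and 88.5 in the RD no tumour mice. The 0 is RD tumour 1, where 492572 UMIs allow up to 6.09 CPM.

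Among 14184 genes in the gate, 8.81% were above and 2.61% below all 6 other mice in both RD tumour mice. RD tumour against RD no tumour gave Irs2 at 1.46 ± 0.51 (adjusted p = 0.389) and Pklr at -2.36 ± 0.88 (adjusted p = 0.419), where 10.7% of genes had an unadjusted p under 0.05. WD tumour against RD tumour gave -1.81 ± 0.51 and 2.55 ± 0.88 (both adjusted p = 0.742), where the share was 6.30%. No gene had an adjusted p under 0.05 in the 4 contrasts of gated nuclei with edgeR, and DESeq2 called 33 to 323. Without RD tumour 2, Pklr in the gate was called in both contrasts (adjusted p = 0.0227 and 0.0308); RD tumour 1, with its 0 UMIs of Pklr, then stood alone and was assumed to vary like the other groups. In the RD tumour mice the summed hepatocyte markers did not set this gate above the nuclei gated as other cell types (described below). They were 30182 to 33589 CPM in the hepatocyte gate and 33518 to 37892.5 in the other-cell gate. In the same order they were 34899 to 70330 and 26879 to 38355 in WD tumour mice. In RD no tumour mice they were 34285 to 51561 and 35358 to 43197. Markers of other cells remained in the hepatocyte gate. The 10 endothelial markers summed to 66.8 to 144 CPM in RD tumour mice, above 54.9 to 65.1 among WD tumour mice and 28.4 to 45.6 among RD no tumour mice, so that they set the same pair apart. The 12 macrophage and monocyte markers summed to 86.5 to 213, 57.6 to 168 and 33.8 to 53.0 in the same order. The 4 neutrophil markers reached 327 in RD tumour 1, were 12.8 in RD tumour 2 and at most 65.4 elsewhere. The part of these cells in the Irs2 and Pklr values was not tested.

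Slc2a2 and Khk varied widely within each group. Whole-library Slc2a2 was 351, 122 and 283 CPM in the WD tumour mice, 14.5 and 99.3 in the RD tumour pair, and 23.7, 197 and 352 in the RD no tumour mice. Khk was 164, 46.1 and 115 in the WD tumour mice, 39.7 and 89.7 in the RD tumour pair, and 51.02, 152 and 111 in the RD no tumour mice. For Khk the 3 libraries that stood apart held the 3 lowest values (39.7 to 51.02, against 89.7 to 164 in the other 5), which is a description since those libraries were set aside on their profiles. In the hepatocyte gate the Khk values were 42.6 to 76.1 and 92.5 to 195.

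For G6pc, Fbp1 and Ppargc1a the whole-library ranges of all 3 groups overlapped, and for Pck1 the WD tumour and RD tumour ranges did not. Pck1 was 1289.6, 771 and 1199.9 CPM in the WD tumour mice, 1363 and 1329 in the RD tumour pair, and 1073, 1369 and 1745 in the RD no tumour mice. G6pc was 373, 105 and 107 in the WD tumour mice, 160.3 and 521 in the RD tumour pair, and 168, 537 and 154 in the RD no tumour mice, so that every group had both a low and a high mouse. Fbp1 ranged from 171 (RD tumour 1) to 456 (RD no tumour 2), and Ppargc1a from 86.1 (WD tumour 2) to 199 (RD no tumour 2).

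Log2 fold changes of WD tumour against RD no tumour were -0.41 ± 0.38 for Pck1, -0.57 ± 0.75 for G6pc, -0.16 ± 0.36 for Fbp1, -0.32 ± 0.32 for Ppargc1a, 0.39 ± 0.62 for Pklr, 0.01 ± 0.59 for Khk, 0.32 ± 0.99 for Slc2a2 and -0.16 ± 0.39 for Irs2 (SE; adjusted p = 1.00 for all 8, edgeR). None of these passed, and the WD tumour and RD no tumour ranges overlapped for every member. In WD tumour against RD tumour, Pklr and Slc2a2 were wholly higher and Pck1 and Irs2 wholly lower, where 10.4% and 11.0% of genes were. In the hepatocyte gate Pklr and Slc2a2 were again wholly higher, and Ppargc1a and Irs2 wholly lower, where the shares were 6.63% and 17.2%. No member separated WD tumour from RD no tumour in that gate, where the shares were 8.06% and 8.07%.

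Nuclei gated as other cell types, by at least 3 UMIs and 0.5% of UMIs in 63 markers of endothelial, stellate, biliary and immune cells, also held RNA of the members. In the 7 mice other than RD tumour 1, the hepatocyte gate was above the other-cell gate in 7 of 7 for all members but Khk. Median ratios were 5.72 for Ppargc1a, 3.89 for Pklr, 3.76 for G6pc, 3.16 for Pck1, 3.15 for Slc2a2, 2.16 for Irs2 and 1.95 for Fbp1. Khk stood apart with a median ratio of 1.16 and a range of 0.823 to 1.99, and was higher in the hepatocyte gate in 5 of 7 mice. In RD tumour 1 the ratio was 0 for Pklr, 0.388 for Slc2a2 and 0.883 for Khk. It ran from 1.25 (Fbp1) to 2.28 (Ppargc1a) for the remaining members of that mouse. The hepatocyte markers themselves summed to 26879 to 43197 CPM in the other-cell gate and 30182 to 70330 in the hepatocyte gate. These ranges over the mice overlapped. Whether the UMIs of the members in the other-cell gate came from RNA made in those cells or from free hepatocyte RNA was not tested.

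**Figure D4:**
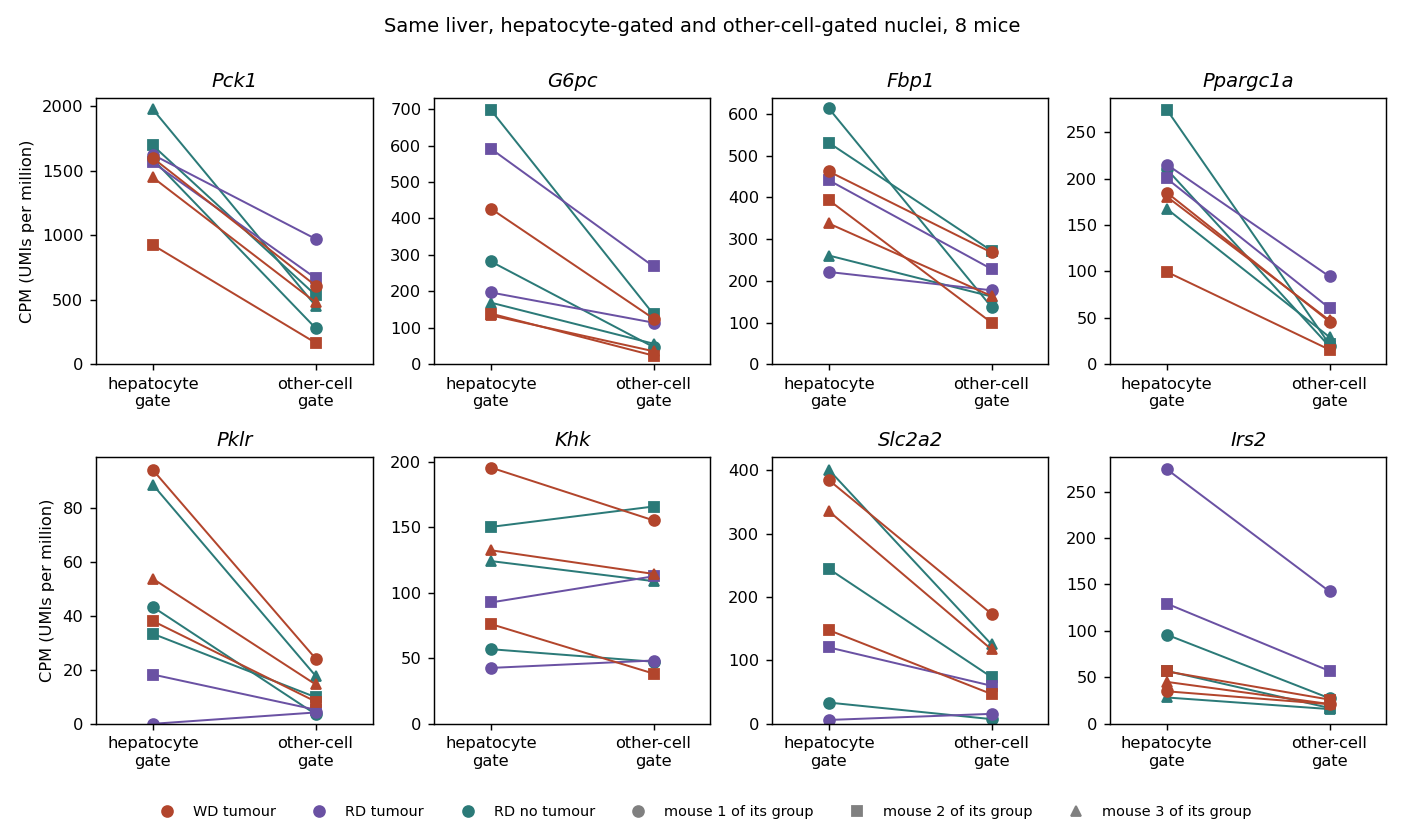
CPM in hepatocyte-gated and other-cell-gated nuclei of the same liver, 1 line per mouse, with linear axes from 0 and a separate scale for each gene. Lines fall steeply for 7 of the genes in most mice, and lie nearly flat for Khk.

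The wider pathway was followed in 10 lists of related genes, 130 genes in all. In WD tumour against the mean of the RD groups no list gene passed in whole libraries (lowest adjusted p = 0.947, edgeR), and the median over all genes was -0.03. The glycogen list had 9 of its 12 genes higher in WD tumour and a median of 0.34, with Ugp2, which makes UDP-glucose, at 0.63 ± 0.22 and Gbe1 at 0.89 ± 0.55. The pentose phosphate list had 1 of 8 genes higher and a median of -0.32, the lowest of the 10 lists in this contrast, with Taldo1 at -0.65 ± 0.50. These lists were chosen with earlier results of the same livers known, and the counts stand as descriptions.

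Liver glycolysis had 7 of 18 genes higher and a median of -0.17. Pdk1, an inhibitor of pyruvate oxidation, was 0.58 ± 0.17 (unadjusted p = 0.00972, edgeR). The list of glycolytic forms typical of other tissues and tumours had 6 of 19 genes higher and a median of -0.22.

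The gluconeogenesis list without the members had 7 of 12 tested genes higher in WD tumour and a median of 0.09. Got1, the cytosolic aspartate aminotransferase, was 114, 77.4 and 114 CPM in the WD tumour mice, 923 and 344 in the RD tumour pair, and 180, 284 and 74.4 in the RD no tumour mice. Like Irs2, Got1 was highest of all in both RD tumour mice, and its difference against the mean of the RD groups was -1.74 ± 0.53 (unadjusted p = 0.0115). Tat, an aminotransferase induced by glucocorticoids, was -0.98 ± 0.43.

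The fructose and polyol list had 4 of 7 genes higher and a median of 0.10, with Sord, which makes fructose from sorbitol, at 1.07 ± 0.59. Genes of sugar sensing and ChREBP targets had 3 of 8 higher and a median of -0.15, and Mlxipl, which encodes ChREBP, was 555.5, 265 and 603 CPM in the WD tumour mice, 48.7 and 541 in the RD tumour pair, and 204, 329 and 395 in the RD no tumour mice. RD tumour 1 was the lowest mouse for Mlxipl, as it was for Pklr, but RD tumour 2 was not low for Mlxipl.

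Insulin and glucagon signalling had 14 of 27 genes higher and a median of 0.03. Igfbp1, a gene that insulin represses, was 108, 441 and 111 CPM in the WD tumour mice, 1818 and 422 in the RD tumour pair, and 519, 171 and 118 in the RD no tumour mice. It was highest in RD tumour 1, followed by the other libraries that stood apart and RD tumour 2. In the glucocorticoid response list 2 of 5 genes were higher and the median was -0.06, with Sgk1 at -0.84 ± 0.31 and Dusp1 at -1.16 ± 0.50.

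Clock genes were listed because many fasting and feeding genes follow the time of day. In the list 7 of 13 genes were higher in the WD tumour mice, with a median of 0.22. Both RD tumour mice were above all 6 others for 2 of the 13, Arntl and Clock, beside 5.87% of all genes tested. They were below all 6 for 2, Per3 and Tef, beside 3.05%. Clock and Tef are named after their values were seen. The pair parted on other genes of the list, also named after their values were seen. Nr1d2 was 116 CPM in RD tumour 1, the highest of all 8 mice, and 27.7 in RD tumour 2, the lowest. Npas2 was 12.9 in RD tumour 1 and 110 in RD tumour 2. Arntl was 25.2, 43.1 and 23.6 CPM in the WD tumour mice, 98.4 and 136 in the RD tumour pair, and 19.4, 65.7 and 39.1 in the RD no tumour mice. Dbp, which cycles opposite to Arntl, was 38.1, 7.78 and 81.7 in the WD tumour mice, 8.99 and 3.20 in the RD tumour pair, and 14.2, 12.7 and 19.5 in the RD no tumour mice. In the RD tumour pair Per3 was 8.06 and 11.8 CPM. The hour of collection is not given in the sources used here, and its part in the Irs2 and Pklr levels was not tested.

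By zone, 21 of the 114 list genes tested were called (18.4%, beside 12.7% of all genes in the same fit), and 1 of them, Sds, is itself a gate marker and is no finding. The other 20 are all named here, after their values were seen. Of the fructose and polyol genes, Tkfc, the triokinase that takes the product of Khk and aldolase forward, was lower pericentrally at -0.83 ± 0.13, with 6 of 7 mice lower. Sord was higher pericentrally at 0.72 ± 0.10 in all 7 mice. Acly and Txnip, both textbook ChREBP targets, were lower pericentrally at -1.65 ± 0.19 and -0.73 ± 0.14.

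In the liver glycolysis list 2 of 17 tested genes were called higher and 1 lower, and in the list of other glycolytic forms 2 of 8 were called higher. Pfkfb3 was higher pericentrally at 1.21 ± 0.21 and Pdk4, which blocks pyruvate oxidation, at 1.14 ± 0.22, each in all 7 mice, and Pfkfb1 and Ldha passed at 0.38 ± 0.10 and 0.37 ± 0.12, although Pfkfb1 was lower pericentrally in 1 of 7 mice and Ldha in 2 of 7. Eno1 was lower, at -0.53 ± 0.12 in all 7 mice, and Taldo1 of the pentose phosphate pathway was higher at 0.51 ± 0.16. No glycogen gene and no glucocorticoid gene of the lists passed. Of 11 tested genes in the gluconeogenesis list, which leaves out the members, only the gate marker Sds passed, and 4 were higher pericentrally.

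In insulin and glucagon signalling, Ppargc1b and Esrra, partners of Ppargc1a in mitochondrial gene control, were lower pericentrally at -1.07 ± 0.11 and -0.87 ± 0.13 in all 7 mice, as Ppargc1a was. Sik1 was lower at -0.51 ± 0.17, while Igfbp1 (0.76 ± 0.10), Cebpb (0.30 ± 0.09) and Grb10 (3.23 ± 0.65) were higher. Grb10 was nonetheless lower pericentrally in 2 of 7 mice. Of the clock genes, Per2, Cry1, Arntl and Cry2 were lower pericentrally, by -0.61, -0.53, -0.40 and -0.38. Over the 10 lists the medians of the zone difference ran from -0.18 in the fructose and polyol list to 0.43 in the glycolytic forms of other tissues, beside 0.01 over all genes.

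The genes whose whole-library level was most like each member over the 8 mice, among 7845 others with a mean of at least 20 CPM, are a description of 8 libraries that share the split into 3 and 5. Up to 3 are named for each. They were Aadat, Slco1a4 and Gnmt for Pck1, Slc22a5, Fcgr2b and Cd164 for G6pc, and Mrc1, 9030616G12Rik and Ufsp2 for Fbp1. For Ppargc1a they were Mrps24, Gm4737 and Sephs2, for Pklr Gpr89 and Ildr2, and for Khk Pcbd1, Actr6 and Akr7a5. Slc2a2 was most like Vgll4, Foxo1 and Lgr4, and Irs2 most like 2510039O18Rik, Rnf44 and Spin1. Pearson r of log2 levels ran from 0.921 for Cd164 to 0.992 for Vgll4.

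Some members overlap other annotated genes on the opposite strand: Pklr overlaps Hcn3, Slc2a2 overlaps 1700112D23Rik and Irs2 overlaps 9530052E02Rik. Whether counting used strand is not given in the sources used here, so their UMIs may include reads of those partners.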

How the data were processed

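Nuclear RNA of 8 snap-frozen livers was made into Chromium 3′ v3.1 libraries, per the labels. The authors deposited raw UMI counts per gene and barcode, made with Cell Ranger 7.0.0 (per the file headers and the submitters' processing notes) on mm10. Filters before deposit are not given in the sources used here.

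UMIs were summed per mouse over barcodes with at least 300 genes. Hepatocyte nuclei had at most 1 UMI of 63 other-cell markers and at least 5 of 14 hepatocyte markers. Zoned nuclei had at least 5 UMIs of the zone markers. Sums were tested across mice with edgeR 4.0.16 (TMM, filterByExpr, quasi-likelihood, Benjamini-Hochberg over all genes tested, threshold 0.05), with DESeq2 1.42.0 as an alternative. All groups entered each group fit, and zones were compared within mice. The fits were tested on simulated data. Doublet calls were kept in the sums, and removed in an alternative. Each mouse is 1 replicate, and intervals of counts cover counting error only. Named genes were the members, and for each list at most 3 genes with the lowest p for WD tumour against the mean of the RD groups. Gene positions are from GENCODE M21 (GRCm38), which holds 32235 of the 32285 gene IDs. The members and lists were chosen with earlier results of these data known. A few genes that this rule or the likeness ranking would name are not reported here.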

Additional observations from a re-analysis of the deposited data

Results flagged for a closer look

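The pericentral-minus-periportal difference of Pklr differed between the 3 groups (adjusted p = 0.0239, edgeR test of zone by group). It depended most on RD no tumour 3, where Pklr was 164 CPM periportally and 43.3 pericentrally, and without that mouse the adjusted p was 1.00. The call was also lost with DESeq2 (adjusted p = 1.00) and on leaving out WD tumour 1, WD tumour 3 or either RD tumour mouse (adjusted p = 0.226, 0.218, 0.112 and 0.230). Gating on 0 UMIs of other-cell markers (adjusted p = 0.0756) or on at most 0.2% of UMIs in them (adjusted p = 0.118) lost it as well, which makes 8 of 14 alternatives. The zone gates also differed between groups in leftover markers of the other zone, as given above. The part of this in the Pklr result was not tested.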

How the results depend on the processing

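In the zone comparison Pck1, G6pc, Fbp1 and Ppargc1a passed in all 14 alternatives, Pklr in 10 and Slc2a2 in 6. The count of genes called by zone was 1465, against 873 with 0 UMIs of other-cell markers and 2375 with other-cell markers at most 0.2% of UMIs, an alternative added after seeing the data. Irs2 turned to -0.046 with 0 UMIs of other-cell markers. The mean within-mouse difference of G6pc was 0.22 with RD tumour 1 and -0.84 without it. For zone by group, 95 genes were called, against 28 with 0 UMIs of other-cell markers, 16 with DESeq2, 35 with at most 0.2% and 41 with at most 5% mitochondrial UMIs (both added after seeing the data), and 39 to 137 on leaving out each mouse.

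The group contrasts called 0 genes with edgeR. For WD tumour and then the RD tumour pair set against RD no tumour, next for both tumour groups, and last for WD tumour set against the mean of the RD groups, DESeq2 called 36, 64, 109 and 64 in whole libraries and 103, 323, 33 and 39 in gated hepatocyte nuclei. Without the 3 libraries that stand apart (added after seeing the data) the counts were 2, 6, 15 and 0, and 33, 58, 50 and 15. Leaving out each mouse gave 0 to 4566, 0 to 4437 and 0 to 715 in the last 3 whole-library contrasts, and 0 to 3195 and 0 to 1868 in the RD tumour contrasts of gated nuclei. The highest counts were all without RD tumour 2. The cause was not tested.

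Directions that turned on leaving out a mouse were all of uncalled differences in whole libraries. With WD tumour minus RD no tumour, ranges were -1.53 to 0.28 for G6pc, -0.033 to 1.21 for Pklr, -0.47 to 0.39 for Khk, -0.38 to 0.025 for Fbp1, -0.21 to 1.15 for Slc2a2 and -0.42 to 0.16 for Irs2. With RD tumour minus RD no tumour, they were -0.32 to 0.14 for Pck1, -0.87 to 1.02 for G6pc and -0.23 to 0.14 for Ppargc1a. Khk in WD tumour against RD no tumour was also -0.024 without doublet calls and -0.18 with at most 5% mitochondrial UMIs.

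Same-numbered mice of different groups did not consistently deviate together (r from -0.66 to 0.50 over 7 pairs, 3 of them over 0.1). The deviations of the 2 RD tumour mice mirror each other by construction, so this check cannot settle whether equal numbers share a batch or day. In the main fits the numbers name mice only. With the replicate block 0 genes were called in every group contrast, and RD tumour against RD no tumour turned to 0.027 for Pck1 and -0.18 for G6pc. The RD tumour group had 2 mice, and 1 of them had 4 nuclei in each zone gate.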
